A study of Homo sapiens with 15 samples.

Results

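KO-1 is 1 of 4 clones of HCT116, a human colon cancer line with a defect in DNA mismatch repair, and it was set here against the clones KO-2, KO-3 and KO-4. All 4 clones carry the genotype label bktRNA1-/-, so the comparison is within that genotype, and no comparison with the wild type was made. Polyadenylated RNA was sequenced from 3 libraries of each clone, said by the labels to be independent experiments, grown in DMEM with serum and with no treatment named. Each clone is 1 isolate, so a difference between KO-1 and the others describes that isolate. For introns and genes, p-values rest on the spread between libraries of an isolate. That spread is pooled in part over genes, and for single introns mostly over all introns tested. An intron whose KO-1 libraries disagree can therefore pass. For whole libraries, they come from permuting libraries across isolates. For every intron the deposited tables hold 2 counts: retained reads, which cross from exon into intron, and spliced reads, which join the flanking exons. Of 111143 introns listed for any clone, 83066 were listed for all 4. Of these, 21223 reached a mean of 10 for both kinds of read over the 12 libraries and were compared.

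bktRNA1 is known as a small guide RNA for ribose methylation of U12 snRNA, the RNA of the minor spliceosome that pairs with the branch site. The minor spliceosome removes a small class of introns, called U12-type, which carry a long conserved 5′ splice site and a conserved branch site close to their 3′ end. Genes with such an intron otherwise have introns of the major class, and unspliced U12-type introns are a usual sign of a weakened minor spliceosome.

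The introns that set KO-1 apart include several of this class. The first 12 and the last 40 bases of 5 of them are shown, as read from the exons of other GENCODE transcripts that cover both ends (GRCh38, release 29). Capitals mark the first 8 bases, compared with GTATCCTT and ATATCCTT, and the 9 bases nearest to the branch site motif TTCCTTAAC.
PSMA1 intron 6, first bases: GTATCCTTttta
PSMA1 intron 6, last bases: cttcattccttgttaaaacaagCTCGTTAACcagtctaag
ATG3 intron 11, first bases: GTATCCTTccct
ATG3 intron 11, last bases: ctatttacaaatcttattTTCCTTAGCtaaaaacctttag
UFD1 intron 5, first bases: GTATCTTTttca
UFD1 intron 5, last bases: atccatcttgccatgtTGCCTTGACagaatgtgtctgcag
MAPK12 intron 8, first bases: GTATCCTCcagc
MAPK12 intron 8, last bases: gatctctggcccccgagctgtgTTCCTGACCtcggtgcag
ZNF207 intron 1, first bases: GTATCCTTtgtc
ZNF207 intron 1, last bases: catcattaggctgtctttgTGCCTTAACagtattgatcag
Between 0 and 1 of the 8 bases and between 1 and 2 of the 9 bases differed from the motifs in these introns. For contrast, CUEDC1 intron 9, which also rose in KO-1, begins and ends as follows, with no base in capitals because it met neither motif.
CUEDC1 intron 9, first bases: gtgaggctggag
CUEDC1 intron 9, last bases: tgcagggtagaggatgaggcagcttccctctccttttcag
UBL5 intron 2 and DYNC1LI2 intron 6 also rose and stood just outside the rule. They are shown because each matched 1 of the motifs closely and the other less well.
UBL5 intron 2, first bases: gtatccactggc
UBL5 intron 2, last bases: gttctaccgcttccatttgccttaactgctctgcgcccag
DYNC1LI2 intron 6, first bases: gtatcctttggg
DYNC1LI2 intron 6, last bases: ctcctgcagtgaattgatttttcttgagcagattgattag

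Depth separated KO-1 from the other clones before any intron was compared. In total the KO-1 libraries held 19917557, 20454252 and 17287797 junction reads at the 83066 introns. The other 9 held 27092050 to 35348260, and the groups did not overlap (exact permutation test over libraries, two-sided p = 0.00455, the smallest these libraries allow). That test, also used in the rest of this paragraph, treats libraries of different clones as exchangeable, although KO-1 is 1 isolate. Against KO-2, KO-3 or KO-4 alone the exact permutation p for depth was 0.1 each, the smallest possible there. Retained reads made up 13.2% to 13.3% of junction reads in KO-1 and 12.9% to 13.7% in the others, a mean difference of 0.002 percentage points (exact permutation p = 0.995). The median intron's log2 odds of retention differed by 0.063 (exact permutation p = 0.341), and with no filter on counts by 0.172 (exact permutation p = 0.0409). Thinned to the smallest library, the filtered difference was 0.044 (exact permutation p = 0.473). The unfiltered one was not computed at thinned depth. The odds add 0.5 to each count, which weighs more in shallow libraries, so depth and retention cannot be told apart there. KO-1 thus had shallower libraries, and its retained share lay within the range of the others. Epithelial keratins were abundant in every library. No leukocyte, endothelial or liver marker had enough reads to be tested, and of the neural ones only TUBB3 did.

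**Figure D1:**
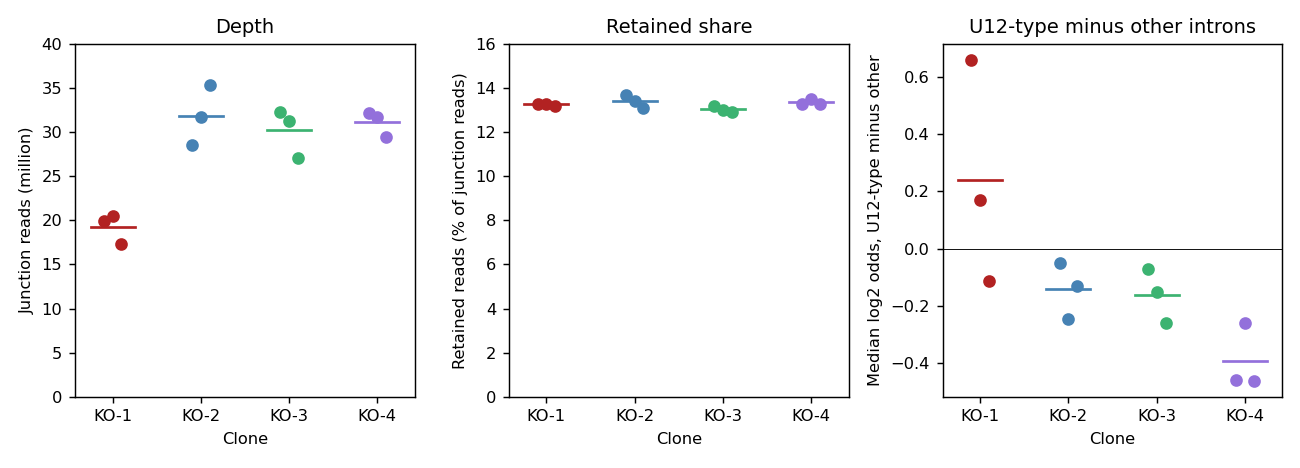
Total junction reads, retained reads as percent of junction reads, and the median log2 odds of retention of U12-type introns minus that of other introns, for each library of the 4 clones; points are libraries and bars are means of 3. The KO-1 libraries are the shallowest, have a retained share of 13.2% to 13.3%, within that of the others, and hold the 2 highest U12 values.

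Intron by intron, retention was compared in a quasi-binomial model as the log2 odds of retained against spliced reads, KO-1 minus the mean of the other 3 clones, with Benjamini-Hochberg adjustment over all introns and a threshold of 0.05. It was higher in KO-1 for 150 introns (0.707% of those tested) and lower for 46 (0.217%). With each library centred on its median intron the counts were 99 and 71. Against single clones, 89 were higher (0.419%) and 73 lower (0.344%) than in KO-2. Against KO-3 the counts were 212 (0.999%) and 87 (0.41%), and against KO-4 they were 136 (0.641%) and 107 (0.504%). These comparisons share the KO-1 libraries. The sister clones, compared in the same way, gave larger counts: KO-2 against its 3 sisters gave 167 higher (0.787%) and 99 lower (0.466%). KO-3 gave 198 (0.933%) and 408 (1.92%), and KO-4 gave 384 (1.81%) and 191 (0.9%). Without the KO-1 library listed first the counts fell to 49 higher and 16 lower. Without the second they were 56 and 16, and without the third 17 introns were lower. With all 12 libraries thinned to the depth of the smallest, 167 were higher and 51 lower. An intron was called set apart when it passed in 1 direction against the mean and against each of the 3 clones. This held for 22 introns that rose (0.104%) and 3 that fell (0.0141%), and for 14 and 1 after thinning. In 19 of the 22 (0.0895% of all tested) and in all 3 the KO-1 libraries did not overlap the other 9. Without the KO-1 library listed first 6 introns were set apart as higher, and without the second 9.

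U12-type introns were mostly higher in KO-1. Both ends could be read for 7686 introns, of which 58 met the sequence rule for U12-type, and 38 of the 58 matched the first 8 bases exactly. Retention was higher in KO-1 for 14 of the 58 (24.1%) and lower for 0 (also 0 at an unadjusted p under 0.05), against 58 higher and 22 lower among the 7628 other introns read. With the other clones as 1 group of 9 libraries 7 of the 58 were higher, and with limma on log2 odds 1 was. The median U12-type intron was 0.427 higher in log2 odds, where the median over all introns tested was 0.045. Of all introns tested 55% lay above 0, and of the 58 U12-type introns 55 did. The 3 below 0 were WAC intron 9, DERL2 intron 4 and SLC25A30 intron 9, none past the threshold. Against single clones the U12 median was 0.443 for KO-2, 0.444 for KO-3 and 0.547 for KO-4, with 8, 9 and 12 introns past the threshold, all higher.

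The libraries of KO-1 were unequal in this. Taking the median log2 odds of the U12-type class less the median of other introns in each library, KO-1 had 0.66, 0.171 and -0.115 in listed order. The other 9 libraries had -0.463 to -0.05. The first KO-1 library was the highest, and the third lay within the range of the other clones. Without the first, 6 U12-type introns were higher, none lower, and 47 of 58 lay above 0, with a median of 0.407. Thinned to 1 depth, the KO-1 values were 0.481, 0.56 and 0.087 and those of the others -0.474 to 0.27. What sets the KO-1 libraries apart from each other here was not tested.

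**Figure D2:**
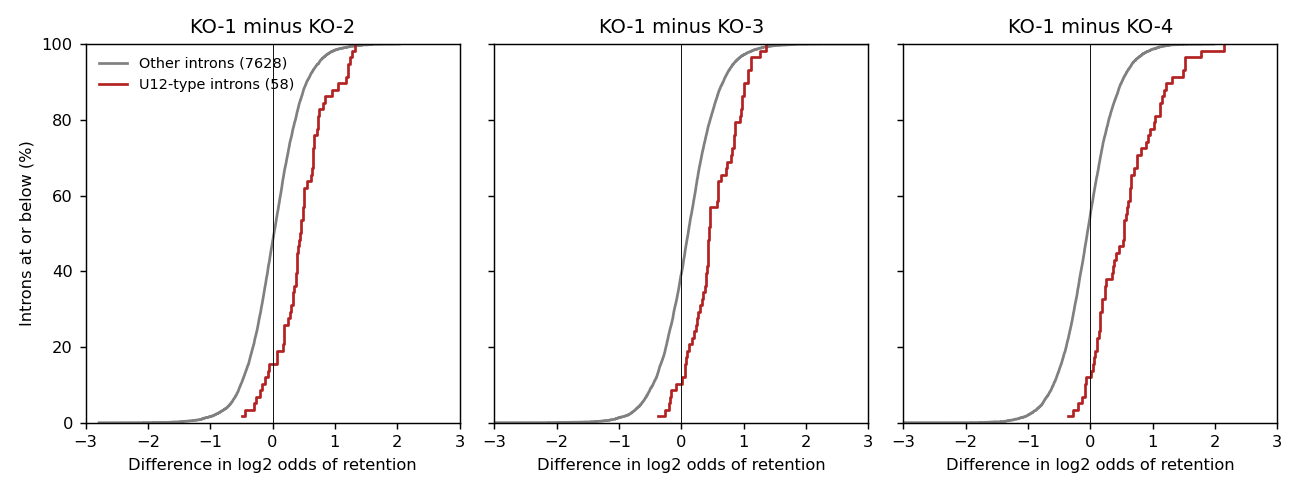
Cumulative share of introns, in percent, against the difference in log2 odds of retention between KO-1 and each other clone, for 58 U12-type introns and 7628 other introns. The U12 curve lies to the right of the other curve in all panels, with medians of 0.443, 0.444 and 0.547.

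Of the 14 U12-type introns that rose, 5 were set apart from each clone. PSMA1, a subunit of the core proteasome, rose in intron 6 of 10 (chromosome 11, 14513888 to 14514402). Its retention level, the retained share once both kinds of read were divided by their effective lengths, was 13.4%, 11.9% and 13.3% in KO-1. It ran from 6.8% to 9.66% in the other 9 libraries, so the groups did not overlap, and the difference was 0.71 ± 0.09 in log2 odds (SE, adjusted p = 9.2e-09). UFD1, a cofactor of the p97 unfoldase in protein degradation, rose in intron 5 of 11 (chromosome 22, 19465275 to 19467872). It stood at 4.02%, 3.92% and 5.7% in KO-1 and at 0.864% to 2.59% elsewhere, lowest in KO-4. MAPK12, the p38 gamma kinase, rose in intron 8 of 11 (chromosome 22, 50255695 to 50255809), from a median of 9.89% in the other libraries to 22.5%, 20% and 16.5%. With limma on log2 odds UFD1 passed (adjusted p = 0.025), while PSMA1 (0.13) and MAPK12 (0.07) did not.

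ATG3, the enzyme that joins LC3 to lipid in autophagy, rose in intron 11 of 11 (chromosome 3, 112532781 to 112534268). Its KO-1 libraries read 37.0%, 35.4% and 35.1%, and the other 9 read 18.3% to 28.0%. ZNF207, whose product guards the spindle checkpoint, rose in intron 1 of 13 (chromosome 17, 32350327 to 32351785), whose reads are shared with the overlapping AC005899.4. It was at 4.36%, 4.23% and 2.45% in KO-1, and the third library lay within the 0.861% to 2.48% of the others. Neither ATG3 (adjusted p = 0.1) nor ZNF207 (0.092) passed with limma on log2 odds. The other 9 U12-type introns past the threshold were in TMEM258, XRCC5, AP2A1, LSM8, UBXN4, SNRPE, NOL11, PSMC4 and ZCCHC8. They rose by 0.43 to 1.25 in log2 odds, and each missed the threshold against at least 1 clone. The largest shift in percent among them was in ZCCHC8 intron 6, a cofactor gene of the nuclear exosome. It was at 41.5% ± 4.6 in KO-1 and 22.9% to 24.5% on average in the other clones (n = 3 each).

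Neighbouring and near-matching introns moved as well. MAPK12 intron 7 (chromosome 22, 50255882 to 50256084), which is not U12-type and lies directly before intron 8, rose to 30.2%, 32.7% and 25.9% from 16.8% to 21.6%. UBL5, a small ubiquitin-like protein of the spliceosome, rose in intron 2 (chromosome 19, 9828394 to 9828591) to 20%, 18.2% and 18.9% from 11% to 14.9%. Its intron 4, which did meet the rule for U12-type, did not pass (quasi-binomial model, adjusted p = 0.79). There KO-1 read 1.21%, 1.24% and 0.761%, within the 0.311% to 1.47% of the others. DYNC1LI2, a light intermediate chain of the dynein motor, rose in intron 6 (chromosome 16, 66732475 to 66734217) by 1.01 ± 0.20 in log2 odds (adjusted p = 0.0007). That rise was carried by 2 libraries, since KO-1 read 33.6%, 33.3% and 18.9% and the others 13.9% to 21.0%.

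Other introns set apart were not U12-type or could not be read. AP1M2, the mu subunit of the epithelial AP-1B sorting adaptor, rose most, in intron 8 of 11 (chromosome 19, 10577357 to 10578891), by 3.49 ± 0.36 in log2 odds (adjusted p = 1.4e-12). It read 14.5%, 15.2% and 31.0% in KO-1 and 0.0867% to 9.09% in the others. Summed over 3 libraries, KO-1 had 63 retained and 135 spliced reads there, KO-2 53 and 460, KO-3 17 and 1800, and KO-4 58 and 919. Per 1000000 junction reads that is 1.09 retained and 2.34 spliced in KO-1, 0.56 and 4.82 in KO-2, 0.19 and 19.9 in KO-3, and 0.62 and 9.83 in KO-4. At equal depth KO-1 thus had the most retained and the fewest spliced reads. SLK, a kinase of the cytoskeleton, rose in intron 13 of 18 (chromosome 10, 104010909 to 104018159) to 22.0%, 18.2% and 29.2% from 2.96% to 9.92%. POLG, the mitochondrial DNA polymerase, rose in intron 19 of 22 (chromosome 15, 89319100 to 89319227) to 5.75%, 8.95% and 7.4% from 0.869% to 3.85%. Retained reads were few there: KO-1 held 47 over its libraries, and the sister clones held 29, 18 and 26. The intron only just met the filter mean of 10, and did so through the higher KO-1 count. It could be tested under 17 alternative settings, where CIAO3 intron 5 had 24.

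CIAO3, a factor of iron-sulfur protein assembly, rose in intron 5 (chromosome 16, 734348 to 734736) to 24.4%, 23.7% and 19.4% from 4.0% to 13.3%. FLOT1, a membrane raft protein, rose in intron 1, within its 5′ UTR (chromosome 6, 30742204 to 30742526), to 11.3%, 17.0% and 19.4% from 5.56% to 10.6%. Its intron 9 rose too, by 0.81. CUEDC1 rose in the neighbouring introns 8 and 9 by the same amount, 0.81 ± 0.14 and 0.82 ± 0.14. Intron 9 (chromosome 17, 57866545 to 57867356) was at 65.4%, 69.0% and 67.7% in KO-1 and at 47.6% to 62.0% elsewhere. BTBD2, the translation factor EIF4A2, the histone chaperone NAP1L1, the mitochondrial prohibitin PHB2 and TTC19 rose by 0.59 to 1.46, and TTC19 overlapped the other clones in 1 KO-1 library. TTC19 intron 2 read 14.9%, 14.5% and 3.92% in KO-1 and 2.4% to 6.7% elsewhere, with an adjusted p of 0.0037 (quasi-binomial model).

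Of the 3 introns that fell, RPL18 intron 2 of 6 (chromosome 19, 48617416 to 48617790), in the gene of a large-subunit ribosomal protein, moved by -1.97 ± 0.33 in log2 odds (adjusted p = 3.1e-05). It read 34.0%, 17.6% and 23.5% in KO-1 and 45.9% to 73.9% elsewhere, on 120 spliced reads in KO-1 and 41 to 58 in each other clone. JUP, the junction protein plakoglobin, fell in intron 14, in its 3′ UTR (chromosome 17, 41755433 to 41755729), to 38.1%, 38.7% and 36.8% from 45.8% to 58.5%. The RNA helicase gene DDX39B fell in intron 1, in the 5′ UTR (chromosome 6, 31540535 to 31541949), whose reads are shared with the readthrough gene ATP6V1G2-DDX39B. There KO-1 read 40.6%, 41% and 41.2% and the others 45.4% to 52.6%. With limma on log2 odds in place of the quasi-binomial model, 3 introns were set apart as higher and 0 as lower. AP1M2, SLK and FLOT1 intron 1 passed there against the mean. POLG, CIAO3, CUEDC1 intron 9, BTBD2, EIF4A2, UBL5, RPL18, JUP and DDX39B did not, with adjusted p from 0.052 (RPL18) to 0.24 (DDX39B).

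**Figure D3:**
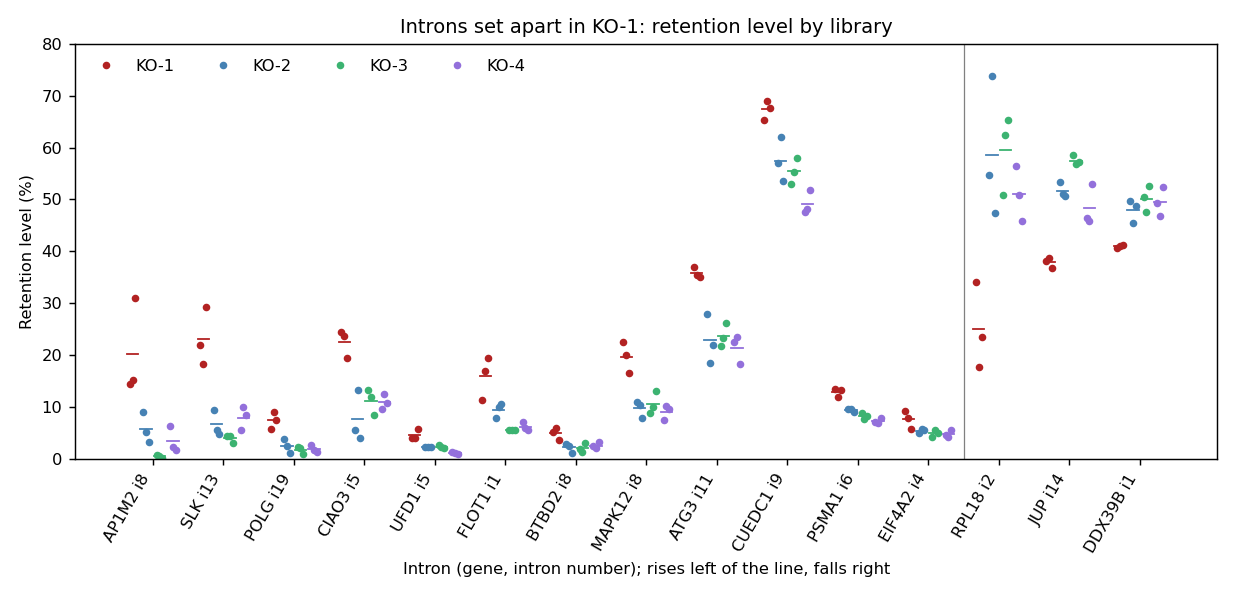
Retention level in percent for the 15 introns set apart with no overlap that were named by the rule, with 3 libraries per clone as points and their mean as a bar. The red KO-1 points lie above all others for 12 introns and below all others for 3.

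Retained and spliced reads were also summed per gene to give 1 retention value for each of 8236 genes. It was higher in KO-1 for 122 genes (1.48%) and lower for 60 (0.729%). The counts were 37 and 13 without the KO-1 library listed first, 41 and 10 without the second and 56 and 16 without the third. GAS6, a ligand of the TAM receptors, had 20.4%, 22.7% and 18.7% retained reads in KO-1 and 8.06% to 16.9% elsewhere (0.97 ± 0.11 in log2 odds, adjusted p = 3.8e-05). AP1M2 again rose, to 9.6%, 12% and 15.3% from 4.91% to 7.35%. FNDC3A, UBXN6 and the ZNF207 reads shared with AC005899.4 rose by 0.82 to 1.44. TAF15, an RNA-binding protein, fell to 7.35%, 8.29% and 7.9% from 10.6% to 12.6%. MDM2, the ubiquitin ligase that limits p53, fell to 42.3%, 41.4% and 42.0% from 45.4% to 51.6%. SLC39A9, PRR13 and ACTB fell by 0.53, 0.36 and 0.15 in log2 odds. For ACTB that was 28.8% to 30.1% against 31.0% to 32.5%, a narrow but non-overlapping gap.

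Gene activity was followed through spliced reads summed over the listed introns of a gene, scaled to CPM (reads per 1000000 reads) with the trimmed mean of M values and tested with limma-voom in 9485 genes. Such a sum depends on how many introns are listed, so levels are compared between clones and not between genes. Spliced reads were higher in KO-1 for 1702 genes (17.9%) and lower for 1637 (17.3%). KO-2, KO-3 and KO-4 against their sisters gave 1946 (20.5%) and 1742 (18.4%), 2470 (26%) and 2428 (25.6%), and 2485 (26.2%) and 2180 (23%), so every clone differed from its sisters at many genes. In KO-1, 384 genes were set apart as higher (4.05%) and 415 as lower (4.38%). Of these, 351 (3.7%) and 389 (4.1%) also had KO-1 libraries that did not overlap the other 9. Taken as 1 group of 9 libraries, the other clones gave 296 higher and 311 lower. The median change per chromosome lay between -0.032 and 0.068 on the log2 scale.

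AP1M2, MAL2 and S100A14 were among the 15 entries that fell most in KO-1. In RNA from whole cultures, fewer cells of a type and less RNA per cell cannot be told apart. AP1M2 (chromosome 19, 10572671 to 10587315) had 36.9, 31.8 and 29.6 spliced CPM in KO-1 and 54.5 to 234 elsewhere, a change of -1.74 ± 0.14 on the log2 scale (limma-voom, adjusted p = 1.5e-09). MAL2 (chromosome 8, 119165034 to 119245673), which serves transcytosis to the apical membrane, fell most. It had 3.27, 2.87 and 3.28 in KO-1 and 18.2 to 67.1 in the others. S100A14 (chromosome 1, 153614255 to 153616986), a calcium-binding protein of epithelia, was at 13.6, 8.62 and 12.9 against 22.7 to 214. KO-3 held the highest level of these 3 genes, and KO-1 the lowest. Against the other clones as 1 group of 9 libraries, MAL2 passed (limma-voom, adjusted p = 0.011), while AP1M2 (0.081) and S100A14 (0.2) did not.

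CDH3 (chromosome 16, 68636189 to 68722616), P-cadherin, had 123, 127 and 130 in KO-1 against 233 to 348, -1.25 ± 0.05 (adjusted p = 6.7e-14). DSC2 (chromosome 18, 31058840 to 31102522), a desmosomal cadherin, was at 11.3, 10.0 and 10.6 against 16.9 to 36.7. ST14 (chromosome 11, 130159562 to 130210376), the membrane protease matriptase, was at 85.1, 78.1 and 76.2 against 126 to 253. KRT15 (chromosome 17, 41513743 to 41522529), a keratin of stratified epithelia, was at 8.65, 11.7 and 10.4 against 17.1 to 75, highest in KO-2. These junction, protease and keratin genes thus had their lowest level in all 3 KO-1 libraries, while the order of the other clones varied. With those clones as 1 group of 9 libraries, CDH3, DSC2 and ST14 passed (limma-voom, adjusted p at most 0.021), while KRT15 did not (0.093).

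Of transcription factor genes among the 15 entries that fell most, TFAP2A (chromosome 6, 10393186 to 10419659), AP-2 alpha, had 5.26, 4.57 and 5.19 in KO-1 and 15.1 to 41.7 elsewhere (-2.10 ± 0.12). The nuclear receptor PPARG (chromosome 3, 12287368 to 12434356) was at 1.87, 1.58 and 1.77 against 2.37 to 10.0. AHR (chromosome 7, 16916359 to 17346152), the aryl hydrocarbon receptor, was at 1.75, 1.97 and 2.63 against 4.32 to 9.8, and its introns shared with AC019117.3 fell by 1.19. FGFBP1, CCDC88B and PRSS22 fell by 1.70, 1.45 and 1.29 on the log2 scale at levels of at most 12.5 CPM. With the other clones as 1 group of 9 libraries, TFAP2A, AHR and CCDC88B passed (limma-voom, adjusted p at most 0.025). PPARG (0.19), FGFBP1 (0.051), PRSS22 (0.07) and the shared AHR introns (0.085) did not.

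Epithelial markers used to check the cell type fell as well. Their summed level was 4943 to 5261 CPM in KO-1 and 5053 to 7558 in the others. Of 10 markers 6 were tested, and all 6 fell against the mean of the other clones, where 17.3% of all genes fell. Against the other clones as 1 group of 9 libraries, ESRP1 passed (limma-voom, adjusted p = 0.014). CLDN7 (0.065), KRT19 (0.063), EPCAM (0.22) and KRT18 (0.65) did not. ESRP1 (chromosome 8, 94641074 to 94707466), the epithelial splicing regulator, had 69.9, 64.8 and 66.3 against 103 to 213 (-1.09 ± 0.08, adjusted p = 5.8e-10). CLDN7, a tight junction claudin, was at 46.2, 41.4 and 41 against 55.4 to 105. KRT19 was at 1020, 1130 and 1200 against 1240 to 1650. EPCAM, KRT8 and KRT18 fell against the mean by 0.58, 0.13 and 0.17, with EPCAM at 173 to 201 in KO-2, which overlaps the 163 to 199 of KO-1, and at up to 417 in KO-3. KRT8 and KRT18 were lower than in KO-3 alone, by 0.47 and 0.66, and were higher than in KO-2 (by 0.046 and 0.085) and KO-4 (by 0.028 and 0.08) without passing. Of a wider list of colon epithelial genes, 7 of 9 tested were lower and 1 higher, with a median of -0.31, and all 5 keratins tested were lower. CLDN7 also fell in the retention of intron 1 (chromosome 17, 7262344 to 7263158), in its 5′ UTR, to 79.3%, 73.2% and 72.2% from 83.4% to 96.7%, though not past the threshold against KO-2. Without clone KO-3 the KRT18 difference was 0.08, higher in KO-1. Of 10 mesenchymal markers 2 were tested and 0 rose: FN1 fell by 0.28 (0.13 higher in KO-1 without clone KO-4) and COL1A1 moved by -0.15 without passing. Of a wider list of mesenchymal genes, 1 of 7 tested was higher, S100A4 by 0.27, and 1 lower, FN1, with a median of 0.06.

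**Figure D4:**
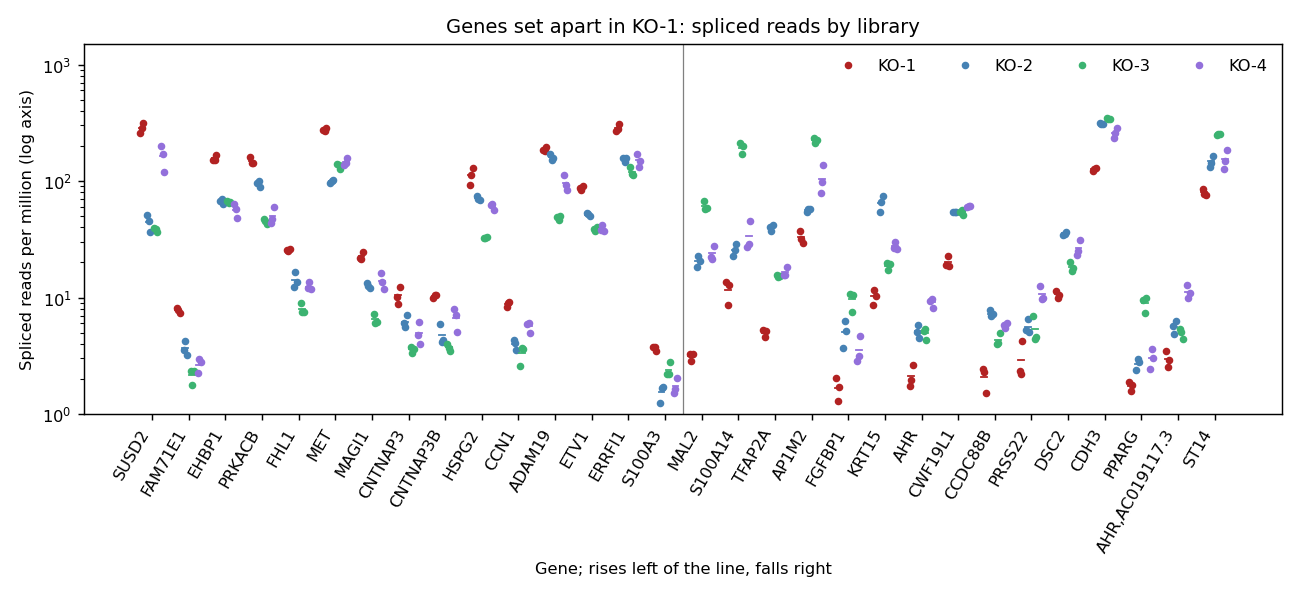
Spliced CPM on a log axis for the 30 gene entries with the largest changes among those set apart with no overlap, with 3 libraries per clone as points and their mean as a bar. KO-1 lies above every other library for the 15 on the left, such as SUSD2 and MET, and below for the 15 on the right, such as MAL2 and CWF19L1.

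For 8 of the 15 falling entries a promoter was in the RefSeq-based table (GRCh38.p14), and 3 are shown, for 2 epithelial genes and for CWF19L1. The 250 bases before the start in that table are given on the gene's strand. Gene spans elsewhere in the text are from GENCODE. The S100A14 bases lie inside its GENCODE span, and those of AP1M2 and CWF19L1 overlap the 5′ end of theirs. Capitals mark CAGGTG on either strand (CACCTG on the other), the E-box bound by SNAI and ZEB repressors among others.
AP1M2, chr19:10587313-10587562, minus strand: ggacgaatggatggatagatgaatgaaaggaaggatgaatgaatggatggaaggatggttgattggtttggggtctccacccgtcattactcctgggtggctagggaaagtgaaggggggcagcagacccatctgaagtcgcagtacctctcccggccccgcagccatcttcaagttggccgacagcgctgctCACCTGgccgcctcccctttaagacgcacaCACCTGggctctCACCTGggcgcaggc
S100A14, chr1:153616326-153616575, minus strand: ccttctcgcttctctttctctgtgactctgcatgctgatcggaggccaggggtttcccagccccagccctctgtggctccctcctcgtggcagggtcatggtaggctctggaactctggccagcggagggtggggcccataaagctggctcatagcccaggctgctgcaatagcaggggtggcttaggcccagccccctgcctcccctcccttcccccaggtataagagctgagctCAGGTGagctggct
CWF19L1, chr10:100267639-100267888, minus strand: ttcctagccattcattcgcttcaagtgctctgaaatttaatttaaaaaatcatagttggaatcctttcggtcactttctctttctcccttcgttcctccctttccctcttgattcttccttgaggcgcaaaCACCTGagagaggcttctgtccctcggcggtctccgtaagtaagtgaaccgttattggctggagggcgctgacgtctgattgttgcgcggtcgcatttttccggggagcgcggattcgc
This motif was in 5 of the 8 falling genes and in 3 of the 12 rising genes with a promoter in the table, where 20.6% of 27305 genes held it. AACCNGTT, close to the site of grainyhead-like factors, was in 1 of the 8, in 0 of the 12 and in 1.85% of all. A match says only that the letters are there.

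Among the 15 genes that rose most, MET (chromosome 7, 116672390 to 116798386), the receptor for hepatocyte growth factor, had 275, 269 and 285 spliced CPM in KO-1 and 96.4 to 159 elsewhere, 1.14 ± 0.05 on the log2 scale (limma-voom, adjusted p = 4.4e-14). ERRFI1 (chromosome 1, 8004404 to 8026308), a feedback inhibitor of the EGF receptor, had 269, 277 and 310, where no other library exceeded 171. The ETS factor ETV1 (chromosome 7, 13891228 to 13991425) was at 87.3, 83.2 and 90.7 against 37.0 to 52.7. PRKACB (chromosome 1, 84078062 to 84238498), a catalytic subunit of protein kinase A, was at 161, 142 and 143 against 42.9 to 100, highest of the others in KO-2. All 3 KO-1 libraries lay above the other 9 for each of these.

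SUSD2 (chromosome 22, 24181259 to 24189110), a membrane protein, rose most, to 257, 284 and 313 against 36.2 to 199, where KO-4 held 120 to 199 and KO-2 and KO-3 no more than 50.8. EHBP1 (chromosome 2, 62673851 to 63046487), a linker of endocytic vesicles to actin, was at 151, 153 and 168 and within 48.3 to 69.5 in all the others. The spread between the other clones was thus narrow for EHBP1 and wide for SUSD2. Of matrix and surface genes, HSPG2, the proteoglycan perlecan, rose to 92.7, 113 and 129 from 32.6 to 74.4. The protease ADAM19 rose to 185, 182 and 194, close to the 152 to 169 of KO-2 and above the 46.0 to 50.3 of KO-3. FHL1, MAGI1, CCN1, FAM71E1 and S100A3 rose by 0.99 to 1.51. CNTNAP3 and CNTNAP3B rose by 1.11 and 1.09, and as near-identical copies their reads may be shared.

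CWF19L1 (chromosome 10, 100232298 to 100267680), named for its likeness to the yeast splicing factor Cwf19, had 19.2, 22.7 and 18.7 spliced CPM in KO-1. KO-2 held 54.0 to 54.4, KO-3 51.5 to 56.4 and KO-4 59.9 to 60.8. KO-1 was thus below all of them, by -1.47 ± 0.07 on the log2 scale (limma-voom, adjusted p = 8.7e-13). Its 11 listed introns are introns 1, 2 in its 2 forms and 6 to 13. Each of 10 of them had fewer spliced reads per 1000000 junction reads in every KO-1 library than in any other. KO-1 held between 29.6% (intron 12) and 44.2% (intron 2) of the mean of the other libraries there. The exception was an alternative form of intron 2 (100261029 to 100261978), with 3 to 4 reads in each KO-1 library and 3 to 16 in the others. Retained reads of the gene fell as well, to 17.5 to 23.9 from 32.8 to 47.3 CPM (-0.99 ± 0.15, adjusted p = 3.3e-05). Its retention per gene, 10.7% to 16.3% against 8.82% to 11.5%, did not pass (adjusted p = 0.13).

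**Figure D5:**
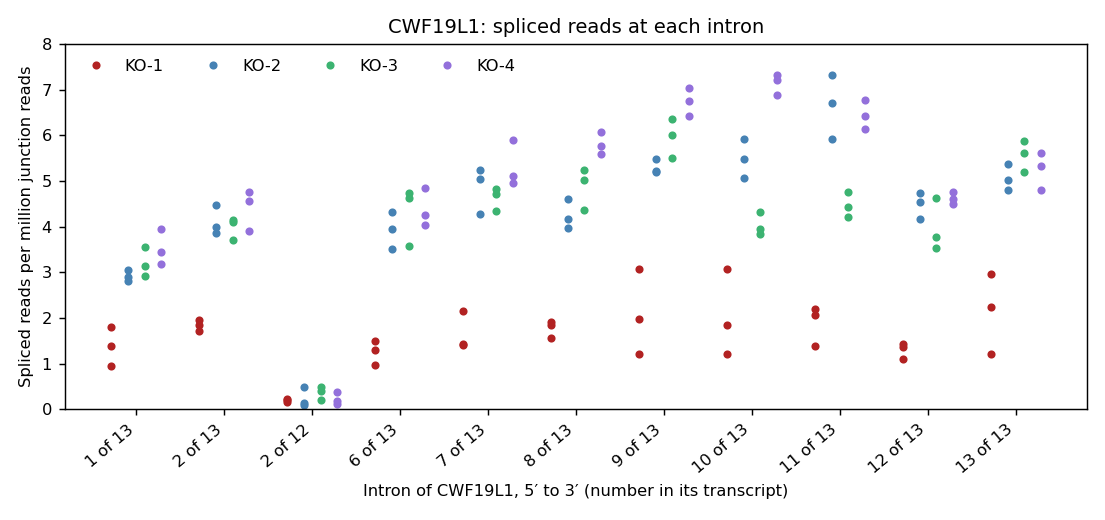
Spliced reads per 1000000 junction reads at the 11 listed introns of CWF19L1, from 5′ to 3′, with 1 point per library. KO-1 lies below every other library at 10 introns and overlaps them at the alternative intron 2.

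Retained reads summed per gene were higher in KO-1 for 503 of 5934 genes (8.48%) and lower for 582 (9.81%). Without the KO-1 library listed first these counts were 296 and 300, and without the second 371 genes were lower. Of the genes set apart as higher in spliced reads, 204 were also tested for retained reads. Of these, 191 had a difference of the same sign and 103 passed, all 103 higher. Of the 278 genes set apart as lower, 260 had the same sign, 142 passed as lower and 1 passed as higher. The 2 kinds of read come from the same libraries.

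Pathway lists were read against the background of 17.9% higher and 17.3% lower in spliced reads. Genes of the p53 response leaned upward: 11 of 27 tested were higher and 0 lower (12 and 0 at an unadjusted p under 0.05), with a median change of 0.19. MDM2 rose to 66.8, 58.4 and 59.1 from 36.5 to 54.0 and TNFRSF10B, a death receptor, to 109, 105 and 118 from 75 to 92.4. The kinase gene PLK2 and the cell cycle inhibitor CDKN1A rose by 0.69 and 0.39 against the mean, but PLK2 in KO-4 overlapped KO-1 and CDKN1A was highest in KO-2. Among cell cycle genes 17 of 39 were higher and 5 lower. CCNE2, cyclin E2, rose to 57.0, 55.6 and 50.1 from 19.7 to 42.5, and the proliferation marker MKI67 to 137 to 139 from 82.6 to 118. CDK4 fell by 0.28.

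Cholesterol synthesis leaned downward, with 14 of 30 lower and 3 higher (median -0.12). HSD17B7, FDFT1 and ACAT2 fell by 0.52, 0.34 and 0.39, while the sterol carrier STARD4 rose by 0.50. Interferon response genes were lower in 11 of 21 and higher in 0 (11 and 0 unadjusted), among them IFI35, PLSCR1, DDX58 and ISG15, which fell by 0.56 to 1.06. None of the 21 was set apart from every clone. In antigen presentation 7 of 15 were lower and 1 higher.

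Of the BMP and TGF-beta list, 3 of 11 were higher and 3 lower. ID3, a target of BMP signalling, fell to 66.3, 81.0 and 87.8 from 133 to 215, and the ligand gene BMP4 to 197, 198 and 208 from 252 to 387. Among genes of MAPK feedback 5 of 17 were higher and 1 lower. EPHA2 and SPRED2 rose by 0.66 and 0.37, PHLDA1 fell by 0.46, and EPHA2 in KO-4 overlapped KO-1. In glycolysis and hypoxia 6 of 31 were higher and 8 lower. PFKL and GAPDH fell by 0.38 and 0.24, and ENO2 and BHLHE40 rose by 0.44 and 0.51 against the mean. ENO2 was higher still in KO-4, at 121 to 125 against 91.6 to 110. In the NRF2 list 4 of 21 were higher and 5 lower, with NQO1 at 462 to 493 against 569 to 924. Ribosomal protein genes were higher in 35 of 80 and lower in 2, by a median of 0.10, and 0 of them were set apart.

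Of 21 proteins of the minor spliceosome tested, 8 were higher and 0 lower (9 and 2 unadjusted), by a median of 0.09, and 0 were set apart. Those with the smallest p were the Sm protein genes SNRPF, SNRPG, SNRPD2 and SNRPE, shared with the major spliceosome, which rose by 0.14 to 0.23. Of 78 tested genes on a list of genes with a U12-type intron, 17 were higher and 13 lower in spliced reads, with a median of -0.02. SMYD2, a lysine methyltransferase, fell to 26.2, 25.1 and 22.1 from 34.7 to 41.7, HPS1 fell by 0.42 and STX10 by 0.29. TCEA2, an elongation factor, rose to 36.6, 37.6 and 39.9 from 18.6 to 31.5. At their introns, 16 of 300 tested were higher and 0 lower (58 and 8 unadjusted), with a median of 0.238 in log2 odds, U12-type introns included. Of all introns tested, 0.707% were higher and 0.217% lower. Of hnRNP genes 4 of 23 were higher and 5 lower, with HNRNPD at 424 to 463 against 540 to 695. Their introns were higher in 8 of 183 and lower in 0 (46 and 4 unadjusted), against the same 0.707% and 0.217%, and 0 were set apart.

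There were 6959 introns listed for KO-2, KO-3 and KO-4 but not for KO-1. The same count was 816 for KO-2, 1940 for KO-3 and 808 for KO-4. Every listed intron had at least 20 junction reads in each library of its table, and the introns missing for KO-1 had a median of 40.6 reads in the other clones, so the lower depth of KO-1 moves with this count. Of those with both kinds of read in the wild type, 26 had a mean of 100 or more reads in the other clones. That count was 6 for KO-2, 38 for KO-3 and 10 for KO-4, so well-covered missing introns were not particular to KO-1. SPARC and VIM, for example, had 5 and 4 introns missing for KO-3, with means of 317.5 and 143.9 reads in the other clones. Among introns missing for KO-1 with both kinds of read in the wild type, at any depth, TFAP2A had 3 and PRSS22 had 4. These averaged 146.9 and 113.0 reads in the other clones. CDH1 (chromosome 16, 68737225 to 68835548), E-cadherin, the main adhesion protein of epithelia, had 8, with 104.8 reads on average and no library under 45, and no intron of it was listed for all 4 clones. EHF, an epithelial ETS factor, MMP14, EPN3 and TFPI likewise had introns missing for KO-1 and none listed for all 4 clones. The missing introns had means of 92.5, 85.7, 70.5 and 68.6 reads elsewhere. EHF had a further 3 introns listed for KO-2 alone, with 141.3 reads on average there, so its listing was uneven among the sister clones too. The levels of these genes in KO-1 were not analysed here.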

How the data were processed

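Per the labels, polyadenylated RNA of 3 libraries of each clone was sequenced with a directional kit. Per the submitters' processing notes, the authors trimmed reads with cutadapt 2.0 and aligned them with STAR 2.7.1a to hg38. The junction counter is not given in the sources used here. Deposited tables hold raw counts of junction reads, 3 libraries in each cell in a list with no replicate number, and effective lengths, so libraries are named in the order listed. All 4 tables were read, and 0 other columns of samples were left unmapped.

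Introns were matched on chromosome, start, end and strand. The 4 groups were fitted together. Retention was tested by a quasi-binomial model. Its dispersion was moderated toward a trend over all introns or genes tested by limma 3.58.1 (squeezeVar, R 4.3.3) and floored at 1. Retention per gene asked for a mean of 10 of each kind of read. Reads per gene (mean of at least 50) were tested by limma-voom with trimmed mean scaling written for this work. The plan had named a quasi-likelihood count test, which was replaced because a check of units could not read the listed cells as counts. For the tests used, each list was split into 1 count per library. All tests are two-sided, with Benjamini-Hochberg adjustment. The scripts were tested on simulated data. Of introns listed for all 4 clones, 99.8% matched GENCODE release 29. Of those tested, 7686 had both ends covered, and U12-type allowed 1 mismatch in the first 8 bases and 2 at the branch site in the last 40.

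Named introns and genes were set apart in 1 direction with the KO-1 libraries not overlapping the others. The 12 largest rises and falls of introns (1 per gene and direction), 15 of genes and 5 of retention per gene were taken, with at most 4 genes and 4 introns of each list by smallest p. Introns that were set apart beyond these, the U12-type introns past the threshold, and the genes with introns missing for KO-1 or KO-3 were named after their values were seen. The members, lists and rules were chosen with earlier results of these data known. Alternatives were other filters, scalings, tests and thresholds, thinned depth, and leaving out each library or clone. Depth limits precision: with 17287797 to 20454252 junction reads in KO-1, small changes at introns of few reads are not detectable. Some features that met these rules are not reported here.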

Additional observations from a re-analysis of the deposited data

How the results depend on the processing

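No paired analysis was possible because the columns carry no replicate numbers, and the planned second count test was not run. In counts given as higher and lower, limma on log2 odds gave 13 and 7 introns, with 3 and 0 set apart and 1 U12-type intron higher, and 40 and 35 genes by retention. Centring each library gave 99 and 71 introns, with 14 and 5 set apart. With the other clones as 1 group of 9 there were 29 and 4 introns and 7 U12-type introns higher, 296 and 311 genes by spliced reads, 47 and 65 by retained reads, and 28 and 11 by retention. Thinning left 14 and 1 introns set apart. At an adjusted p of 0.01 there were 64 and 17 introns, with 9 and 1 set apart. The genes at that threshold were 1110 and 1073 by spliced reads, with 193 and 237 set apart, 265 and 288 by retained reads, and 42 and 13 by retention. With a mean of at least 200 reads, 320 genes were higher by retained reads. Without clone KO-2, 76 introns were lower, 60 and 14 were set apart, and 648 genes were set apart as lower by spliced reads. Without KO-3 these were 84 introns, 39 and 16 set apart, and 913 and 1086 genes set apart. Without KO-4, 35 and 9 introns and 688 and 671 genes were set apart, and 38 genes were lower by retention. These settings with fewer clones ask for fewer passes, and the cause of the other changes was not tested.

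Leaving out 1 library at a time gave 49 to 174 introns higher and 16 to 48 lower, 6 to 20 and 1 to 3 set apart, and 6 to 17 U12-type introns higher. By spliced reads 1244 to 1735 genes were higher and 1186 to 1733 lower, with 283 to 365 and 297 to 427 set apart. By retained reads there were 296 to 501 and 300 to 618, and by retention 37 to 142 and 10 to 70. The depth difference ran from -12.467 to -10.884 times 1000000 reads, the retained share from -0.048 to 0.052 points and the median log2 odds from 0.042 to 0.083. With no filter on counts the last was 0.172 and passed the exact permutation test, which treats libraries of different clones as exchangeable. That setting was not repeated at thinned depth, so depth and retention cannot be told apart in it. Of 3712 alternative values for 167 named results, 3386 kept direction and side of the threshold, 321 lost the threshold and 5 reversed. The reversals were S100A4 (-0.254), KRT18 (0.081) and HOXB4 (-0.118) without KO-3, and ZFAS1 (-0.019) and FN1 (0.13) without KO-4. The lower depth of KO-1 limits what can be seen at introns of few reads.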
